A study of Mus musculus with 12 samples.

Results

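The first response of C2C12 myotubes to C26 conditioned medium was read from the pair of arrays taken after 4 h, 1 treated and 1 untreated, out of 12 arrays in the series. C2C12 is a mouse myoblast line whose cells fuse in culture into multinucleated myotubes, and C26 is a tumour line from mouse colon whose growth in mice brings on cachexia, the muscle wasting that accompanies cancer. Myotubes differentiated for 3 days were either not treated or given C26 conditioned medium, which made up 1 part in 3 of the volume, the rest being differentiation medium. They were sampled at 4, 8 and 24 h, with an untreated array of its own at each time. A separate experiment used leukemia inhibitory factor (LIF), which signals through the receptor subunit gp130 as interleukin-6 does, at 10 ng/ml, and its treated and untreated arrays at 4 h are set beside the conditioned medium values. The series title asks about LIF in the cachexia caused by C26. The labels say neither what the conditioned medium contains nor what the untreated cultures received in its place, so factors from the tumour cells and dilution of the differentiation medium cannot be told apart.

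RNA from 3 wells was pooled for each array, so every value below stands for 1 array a side, and no difference has a replicate check or a test. Values are log2 expression levels, 1 per gene, and a difference is the treated minus the untreated array of the same time. In a whole culture, fewer cells of a type and less RNA per cell cannot be told apart. The 1290 olfactory and vomeronasal receptor genes, whose main use is in sensory neurons, served as a gauge of background: 95% of them had a mean over both 4 h arrays below 5.105, and 14728 of 21187 genes (69.5%) lay above that level. The median of the array was 6.71 without and 6.72 with conditioned medium. The differences of all genes had a median of 0 and a standard deviation of 0.138, which narrowed with the level from 0.163 under 4 to 0.065 at 10 and above.

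Myotube identity was plain on both arrays. All 14 defining markers lay above background and their differences ran from -0.09 to 0.04. The cardiac alpha-actin gene Actc1, used in embryonic muscle, read 12.74 untreated and 12.76 treated, the skeletal alpha-actin gene Acta1 12.57 and 12.56, and desmin (Des), the muscle intermediate filament, 12.46 and 12.47. Of 14 colon epithelium markers 7 lay above background and none differed by 1.5-fold, and Epcam, which defines epithelium, read 4.38 and 4.34, within background. Of 14 macrophage and leukocyte markers 6 lay above background. The pan-leukocyte gene Ptprc read 4.20 and 4.09, again within background. The summed linear level of the leukocyte markers was 524 untreated and 537 treated, and that of the colon markers 839 and 838. The 14 markers of fibroblasts and unfused cells, 11 of them above background, ran from -0.41 to 0.27, with summed levels of 8971 and 9357. The 9 adipocyte markers, 5 of them above background, ran from -0.18 to 0.08, with sums of 655 and 660. All 8 endothelial markers, only 3 of them above background, were lower with treatment, by at most 0.22, and their sums were 281 and 261.

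The first genes to stand out were those of the interferon response. Interferons are secreted proteins that bind paired receptors on the cell surface. Their receptors activate the kinases Jak1 and Tyk2, which phosphorylate STAT proteins such as Stat2. These join Irf9 in a complex that enters the nucleus and switches on antiviral genes through a DNA element called the interferon-stimulated response element. Muscle fibres and cultured myotubes carry these receptors and are known to answer interferon in this way.

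At 4 h, 74 genes were higher by at least 1.5-fold, a log2 difference of 0.585, which is 0.349% of all genes, and 18 were lower by as much, 0.085%. At 2-fold the counts were 16 higher, 0.0755%, and 0 lower, 0%. Between the untreated arrays at 8 h and 4 h, with no treatment, 36 genes were higher by 1.5-fold (0.17%) and 17 lower (0.0802%). That comparison shares the untreated 4 h array. Of the 74 higher genes 47 had a mean above background and 27 did not, and of the 18 lower genes 6 did and 12 did not. By this mean the share of dim genes was larger on the lower side, but a rise itself lifts the mean and a fall lowers it. By the untreated level alone, 41 of the 74 higher genes and 9 of the 18 lower genes lay above background. Receptor genes of smell, which are 1290 of all 21187 genes, made up 5 of the 18 lower and 8 of the 74 higher genes.

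**Figure D1:**
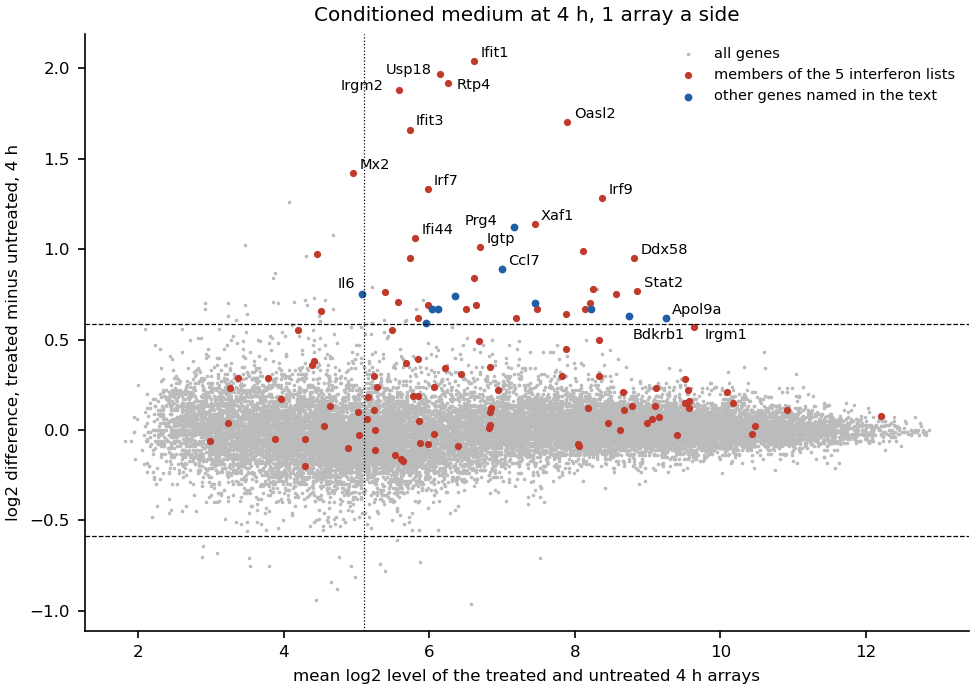
Each point is a gene. The horizontal axis is its mean log2 level over the treated and untreated 4 h arrays, the vertical axis is the treated minus untreated log2 difference, dashed lines mark 1.5-fold and the dotted line marks the background level of 5.105. Members of the 5 interferon lists (red, with other named genes in blue) are 12 of the 16 points past 2-fold and 32 of the 74 past 1.5-fold, up to 2.04 for Ifit1, and the spread of all genes narrows to the right.

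The 5 lists of interferon-responsive genes (transcription factors and kinases, antiviral effectors, ISG15 conjugation, nucleic acid sensors and inducible GTPases) held 109 measured genes. All genes numbered 21187, and the lists were chosen with earlier results of these data known, so their counts are a description. Of the 109 genes 89 were above 0, against 46.0% of all genes. By 1.5-fold 32 were higher and 0 lower, against 0.349% and 0.085% of all genes. The lowest value in the lists was -0.20. They supplied 29 of the 47 higher genes above background (61.7%) and 12 of the 16 genes higher by 2-fold. The other 4 at 2-fold were the lubricin gene Prg4, the proton pump subunit gene Atp6v0d2 (4.14 and 5.22, mean within background), and the receptor genes of smell Olfr268-ps1 and Vmn1r208, both within background. Several families here, among them Ifit, Oas, Gbp, Irgm, Ifi200, H2 and Apol9, hold near-identical copies that an array may not separate, so the value of a single member is uncertain.

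Antiviral effectors, the proteins that block viral RNA, protein synthesis or assembly, gave the highest values. Ifit1, which binds viral RNA lacking a host cap, read 5.6 untreated and 7.64 treated, a difference of 2.04 or 4.11-fold. Its treated level lay well above background and its untreated level just above it. Rtp4, a chaperone of membrane receptors that also limits RNA viruses, read 5.30 and 7.22, a difference of 1.92. The oligoadenylate synthetase-like gene Oasl2 read 7.05 and 8.75, a difference of 1.70 from a level clear of background. Ifit3, the partner of Ifit1, read 4.90 and 6.56 (1.66), starting within background. The apoptosis-linked gene Xaf1 read 6.88 and 8.02 (1.14), and Ifi44 read 5.28 and 6.34 (1.06). Mx2, a dynamin-like antiviral GTPase, read 4.25 and 5.67, a difference of 1.42, but its mean lay within background, so its size is uncertain.

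In the whole effector list 50 of 58 measured genes were above 0 and 16 were higher by 1.5-fold, with a median of 0.215 against 0 for all genes. Beside those already given, the 16 included Lgals3bp, a secreted glycoprotein, which read 8.20 and 8.95, and Trim25, a ubiquitin ligase that activates RNA sensing, at 7.86 and 8.56. Parp9 and its partner Dtx3l read 6.88 and 7.50, and 7.56 and 8.20. Parp14, Helz2 and Samd9l were each between 0.67 and 0.69 higher. Oas1b (0.97) and Phf11d (0.66) passed 1.5-fold with means within background. Other well-known effectors were nearly level between the arrays at this time. Ifit2 read 6.82 and 6.85 and Oas1a 5.84 and 5.89. Rsad2 (4.97 and 5.07), Mx1 (3.22 and 3.26) and Oas3 (5.06 and 5.03) lay within background on both arrays, where a small difference would not be seen. The membrane proteins Ifitm3 (12.17 and 12.25) and Ifitm2 (10.86 and 10.97), which hold back viral entry, were already bright in untreated myotubes and differed by 0.08 and 0.11.

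Some genes of interferon signalling were higher and others near level. The receptor genes were present and near level: Ifnar1 read 9.90 and 9.82, Ifnar2 10.37 and 10.48, Ifngr1 9.54 and 9.59 and Ifngr2 11.03 and 11.00. The kinase genes Jak1 (10.44 and 10.42) and Tyk2 (8.09 and 8.01) were also near level. Of the 16 measured transcription factors and kinases 5 were higher by 1.5-fold. Irf9, the DNA-binding subunit of the complex, read 7.74 and 9.02, a difference of 1.28. Stat2, which joins Irf9 there, read 8.48 and 9.25, a difference of 0.77. Irf7, a factor that amplifies the response and whose gene is itself a target of the complex, read 5.32 and 6.65 (1.33). The nuclear body protein gene Sp100 read 5.63 and 6.32 (0.69). Irf1, an early gene of the response to interferon gamma, read 8.97 and 9.01, and Irf3, which is activated by phosphorylation, read 8.62 on both arrays. Irf2 (9.13 and 9.20) was near level too, and Irf5 (6.03 and 5.95), Irf8 (5.70 and 5.54) and Batf2 (5.72 and 5.55) were at -0.08, -0.16 and -0.17.

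Interferon genes themselves were near level or within background at 4 h. Of 16 measured ligand and receptor genes 8 were above 0, 7 below and 0 past 1.5-fold in either direction, and the range was -0.26 to 0.19. The interferon beta gene Ifnb1 read 3.89 and 3.96 and the interferon alpha genes Ifna4 and Ifna13 were within background on both arrays. Above background but near level were the alpha gene Ifna5 (6.64 and 6.55) and the lambda genes Ifnl3 (5.97 and 6.16) and Ifnl2 (9.51 on both arrays). Interferon gamma (Ifng) read 5.54 and 5.47. Whether the conditioned medium carried an interferon was not measured.

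The ISG15 list held one of the highest values. Usp18, a protease that removes the ubiquitin-like protein ISG15 from its targets and blocks the interferon receptor, read 5.17 and 7.14, a difference of 1.97 or 3.92-fold. Its untreated level was close to background. The ISG15 ligase gene Herc6 read 5.22 and 5.93 (0.71), Uba7, which activates ISG15, 6.05 and 6.39 (0.34), and Ube2l6, which carries it, 9.0 and 9.23 (0.23). All 4 measured genes of that list were above 0. Socs1, an inhibitor of JAK kinases and outside that list, read 7.56 and 7.47.

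Sensors of foreign nucleic acid followed the same course. The RNA helicase Ddx58 (RIG-I) read 8.35 and 9.30, a difference of 0.95. Its relatives Dhx58 (5.27 and 6.22) and Ifih1 (5.54 and 6.16) were higher by 0.95 and 0.62. Eif2ak2, the kinase PKR that stops translation on double-stranded RNA, read 7.80 and 8.47 (0.67). Zbp1, which senses Z-form nucleic acid, read 6.19 and 7.03 (0.84), and Ifi203, of the DNA-binding PYHIN family, 7.62 and 8.61 (0.99). Ifi202b, of the same family but outside the lists, read 7.92 and 8.70 (0.78). Adaptors downstream of the sensors differed little: Mavs read 9.42 and 9.39, Sting1 9.49 and 9.65 and Myd88 9.45 and 9.60. Of 20 sensor genes 17 were above 0 and 6 past 1.5-fold.

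Interferon-inducible GTPases, a family with a part in defence against pathogens held in vacuoles, came next. Irgm2 read 4.64 and 6.52, a difference of 1.88 from a level within background. Igtp (Irgm3) read 6.20 and 7.21 (1.01). Irgm1, at 9.35 and 9.92, differed by 0.57, just under 1.5-fold. Among the 2694 genes whose mean lay between 9 and 10, only Apol9a, at 0.62, was higher. The guanylate-binding protein genes Gbp3 (5.02 and 5.78) and Gbp2 (5.22 and 5.77) differed by 0.76 and 0.55 and Gbp7 by 0.39. Gbp9, Gbp4 and Gbp5 were below 0, by at most 0.14. In all 8 of 11 measured genes were above 0 and 3 were past 1.5-fold.

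Antigen presentation by MHC class I, a later arm of the same response, was near level at 4 h. Of 19 genes 10 were above 0 and 7 below, 0 were past 1.5-fold, and the median was 0.02. H2-Q4 differed most, 6.31 and 6.61. The peptide transporter genes Tap1 (6.05 and 6.22) and Tap2 (7.36 on both arrays), the light chain B2m (12.05 and 12.08) and the immunoproteasome subunit Psmb10 (8.33 on both) differed by at most 0.17. By 8 h the list's median was 0.25, with H2-Q4 at 0.99, Tap2 at 0.49, Psmb10 at 0.44 and H2-Q7 at -0.68.

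The promoters of the first genes were read for the interferon element because so many of them are its textbook targets. Promoter sequences were those of RefSeq on build GRCm38.p6, from 250 bases before to 50 after each annotated start. Of the 47 higher genes above background 31 matched an entry, and 14 of those (45.2%) held GAAANNGAA, the core of the interferon-stimulated response element, on either strand. The same letters were found for 9.2% of all measured genes with an entry and 8.1% of those above background. Of all 32851 promoters 8.6% held them. The STAT site TTCNNNGAA was in 4 of the 31 (12.9%, against 9.1% of measured genes), and can overlap the interferon core. The NF-kB letters GGNNTTTCC were in 2 (6.5%, against 6.7%), the AP-1 letters TGAGTCA in 2 (6.5%, against 5.3%) and a CArG box in 0 (0%, against 1.6%). Of the 11 lower genes with an entry 1 held GAAANNGAA (9.1%). No entry matched Usp18, Rtp4, Prg4 or the chemokine genes Ccl7, Ccl2 and Ccl11, so these shares do not cover them. A match describes letters in the window and is not a binding site.

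The 250 bases before the start are shown for 4 of the highest genes, 2 from the Ifit cluster on chromosome 19 and 2 from the GTPase cluster on chromosome 11, because they hold the element in each orientation. They are read 5′ to 3′ on the plus strand, which is the strand of all 4 genes, and capitals mark GAAANNGAA or its reverse complement.
Ifit1, chr19:34640639-34640888: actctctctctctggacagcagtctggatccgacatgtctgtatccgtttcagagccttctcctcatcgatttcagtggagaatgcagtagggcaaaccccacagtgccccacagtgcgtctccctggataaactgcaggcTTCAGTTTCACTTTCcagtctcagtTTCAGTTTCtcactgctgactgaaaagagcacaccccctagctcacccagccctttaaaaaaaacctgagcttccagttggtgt
Ifit3, chr19:34583279-34583528: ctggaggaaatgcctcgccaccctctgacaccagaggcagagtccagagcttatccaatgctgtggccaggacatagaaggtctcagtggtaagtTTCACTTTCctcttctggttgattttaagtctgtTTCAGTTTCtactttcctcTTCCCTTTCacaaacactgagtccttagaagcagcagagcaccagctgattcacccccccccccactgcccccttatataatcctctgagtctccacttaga
Irgm2, chr11:58214727-58214976: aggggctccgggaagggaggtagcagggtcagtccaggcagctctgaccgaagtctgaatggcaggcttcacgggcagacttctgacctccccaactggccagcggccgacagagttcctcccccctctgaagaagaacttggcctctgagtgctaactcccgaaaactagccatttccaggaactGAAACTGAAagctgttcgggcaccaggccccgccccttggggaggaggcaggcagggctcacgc
Igtp, chr11:58199306-58199555: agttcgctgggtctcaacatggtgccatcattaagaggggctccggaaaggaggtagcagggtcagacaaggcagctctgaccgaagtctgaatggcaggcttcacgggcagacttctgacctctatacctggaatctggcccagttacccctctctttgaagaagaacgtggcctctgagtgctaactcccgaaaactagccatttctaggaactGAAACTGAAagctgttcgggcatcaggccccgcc
Ifit1 and Ifit3 each hold 3 matches, all on the minus strand. Counted from the annotated start at 0, those of Ifit1 begin at -109, -103 and -84, the first pair overlapping, and those of Ifit3 at -155, -121 and -102. Irgm2 and Igtp hold 1 match each, with the same 9 letters on the plus strand, beginning at -64 and -34. Among the other first genes Gbp3, Apol9a, Eif2ak2 and Ifih1 held 2 matches in a window and Ifi44, Ifi203, Ddx58, Stat2, Trim25 and Samd9l 1. The windows of Oasl2, Irf7, Irf9 and Xaf1 held none.

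Chemokine genes formed the next group. Chemokines are secreted proteins that draw leukocytes into tissue, and 3 that attract monocytes and eosinophils lie side by side on chromosome 11. Ccl7 read 6.55 untreated and 7.44 treated, a difference of 0.89. Ccl2 read 7.11 and 7.81 (0.70), and Ccl11, eotaxin, 5.79 and 6.46 (0.67). All 3 had both arrays above background. Ccl8 read 4.77 and 5.24 with its mean within background. Cxcl14 read 8.23 and 8.51, and the interferon-responsive Cxcl10 6.29 and 6.60. Cx3cl1 (9.51 and 9.38) and Ccl17 (7.90 and 7.82) were slightly lower. Over the list 14 of 20 genes were above 0, 3 were past 1.5-fold and the median was 0.095.

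NF-kB is a factor freed when inflammatory cytokines degrade its inhibitor. Of 28 genes 15 were above 0 and 13 below, with a median of 0.015. Its part in the chemokine values was not tested. Among its inhibitors Nfkbia read 8.84 and 9.0, Tnfaip3 8.07 and 8.02 and Nfkbie 7.16 and 7.31. The adhesion molecule gene Vcam1 read 9.24 and 9.48 (0.24) and Icam1 5.86 and 5.63 (-0.23). Bcl3, an NF-kB cofactor, read 7.81 and 8.18 (0.37). Il6, the gene of the cytokine interleukin-6, was the single member past 1.5-fold, at 4.71 and 5.46, with a mean just within background. Cyclooxygenase 2 (Ptgs2) read 10.57 and 10.36, a difference of -0.21 that only 0.1% of the 2497 genes with a mean of 10 or more reached or went below.

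The STAT3 list, chosen like the others with earlier results of these data known, holds genes taken as targets of interleukin-6 family cytokines. Most of its members above 0 were under 1.5-fold. Prg4, which encodes lubricin, a lubricating proteoglycan, read 6.61 and 7.73, a difference of 1.12. The inflammatory caspase gene Casp4, also a target of interferon, read 7.89 and 8.56 (0.67). Socs3, the feedback inhibitor of this pathway, read 8.34 and 8.64, a difference of 0.30 at or above 99.1% of the 2790 genes of like level. The receptor genes Il13ra1 (10.44 and 10.78) and Osmr (9.95 and 10.27) differed by 0.34 and 0.32, each at or above 99.9% of the 2497 genes with a mean of 10 or more. Il4ra read 10.04 and 10.28, the alarmin gene Il33 6.51 and 6.98, the tetraspanin gene Cd53 7.93 and 8.29 and the hepatocyte growth factor gene Hgf 8.37 and 8.64. Stat3 itself read 10.91 and 11.00, the shared receptor subunit gene Il6st 10.61 and 10.62 and the LIF receptor gene Lifr 9.14 and 9.16. In all 22 of 32 genes were above 0, 2 were past 1.5-fold and the median was 0.09. Acute phase and complement genes, which the liver makes in answer to the same cytokines, had 9 of 20 above 0 and 0 past 1.5-fold, and 12 of the 20 lay within background.

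Some higher genes lay outside these groups. The kinin receptor gene Bdkrb1, which inflammation induces, read 8.42 and 9.05 (0.63). The carbonic anhydrase gene Car12 read 5.66 and 6.25 (0.59). Chosen after their values were seen, the apolipoprotein L gene Apol9a (8.94 and 9.56), the secreted genes Pi15 (5.98 and 6.72), Sfrp4, a Wnt antagonist (5.70 and 6.37), and the matrix gene Efemp1 (4.92 and 5.51) were higher by 0.62, 0.74, 0.67 and 0.59. The untreated level of Efemp1 lay within background. The proteasome subunit gene Psma5 read 5.08 and 5.69, also from within background. It stood at 5.87 in the untreated 8 h array, above both 4 h arrays. The remaining 5 of the 18 genes above background and outside the interferon lists were Vmn2r61, Olfr1333, A430057M04Rik, Krtap10-4 and Phxr4, named after their values were seen, with differences of 0.60 to 0.79.

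No member of any of the lists passed 1.5-fold on the lower side. The lowest genes above background by the ranking used here were the protocadherin gene Pcdha6 (5.78 and 5.0), the chemokine gene Ccl27a (6.24 and 5.51) and the relaxin-family hormone gene Insl3 (7.88 and 7.17). Their values at 8 h were 0, 0.19 and 0, so none was lower at the next time. Without a filter on level the lowest were Pin4 (4.92 and 3.98) and Gprasp2 (5.18 and 4.30), at 0.19 and 0.12 at 8 h. The means of both lay within background, though the untreated level of Gprasp2 lay just above it. Outside the ranking and chosen after its value was seen, the T cell receptor segment Trdv2-2 read 7.06 and 6.10, the lowest difference of all at -0.96, and was at 0.39 at 8 h. Of the 18 lower genes 6 were below 0 at 8 h and 7 at 24 h, against 47.9% and 48.6% of all genes, and 0 were lower by 1.5-fold at either time.

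Most targets of YAP and TEAD had small negative differences. YAP and TEAD are factors that switch on genes when cells spread or are stretched. Of 15 of their targets 13 were below 0, against 49.6% of all genes, and the median was -0.07. Ccn2, the best known of them, read 11.72 and 11.54 (-0.18), the endothelin gene Edn1 7.84 and 7.64 (-0.20) and Ccn1 11.49 and 11.34 (-0.15). Crim1 (7.92 and 7.66) was lowest in the list at -0.26. At 8 h Ccn2 was at -1.32, Edn1 at -1.46 and Ccn1 at -0.60. In the TGF-beta and activin list 15 of 26 genes were below 0, a share of 57.7% that is near that of all genes, among them the activin antagonist gene Fst (11.08 and 10.91), which stood at -0.60 at 8 h. In the ERK list, feedback and target genes of growth factor signalling, 18 of 25 were below 0 (72.0%) with a median of -0.04. The growth factor gene Hbegf read 9.64 and 9.43 (-0.21), then -0.98 at 8 h, and Ereg read 7.34 and 7.24, then -0.70. None of these lists had a member past 1.5-fold at 4 h.

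Immediate early genes, which answer most stimuli within the first hour, were level by 4 h. Of 30 genes 14 were above 0 and 16 below, between -0.15 and 0.23. Fos read 6.58 and 6.71, Egr1 10.58 and 10.61, Jun 10.61 and 10.64, Myc 9.86 and 9.82 and Atf3 7.43 and 7.41. The highest was the nuclear receptor gene Nr4a2 (8.91 and 9.14). No array was taken before 4 h, so an earlier pulse was not measured.

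Genes of the contractile apparatus and of muscle wasting were close to level. Of 50 sarcomere genes 14 were above 0 and 30 below, between -0.14 and 0.11, with a median of -0.02. The myosin heavy chain genes Myh3 (11.70 and 11.65), Myh8 (9.75 and 9.79) and Myh1 (11.36 and 11.33) differed by at most 0.05. The atrophy ligase genes Trim63 (MuRF1, 8.31 and 8.30) and Fbxo32 (atrogin-1, 9.54 and 9.57) differed by -0.01 and 0.03. In the atrophy and FoxO list 11 of 20 were above 0 and 9 below, 0 passed 1.5-fold and the extremes were Ddit4, an inhibitor of mTORC1 (8.26 and 8.47), and Klf15 (5.98 and 5.79). Autophagy genes had 12 of 20 above 0, led by the mitophagy receptor gene Bnip3 (9.01 and 9.27) and the conjugating enzyme gene Atg3 (10.35 and 10.56). Proteasome subunit genes had 19 of 25 above 0 with a median of 0.03, and Psma5, given above, was the single one past 1.5-fold.

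Regulators of myogenesis were likewise near level, with 22 of 33 above 0 and a median of 0.03. The muscle-determining factors Myod1 (10.80 and 10.84) and Myog (11.09 and 11.02) differed by 0.04 and -0.07. Myf6 (6.64 and 6.94) differed most, by 0.30. Repressors of differentiation lay on both sides. Hey1, a Notch target, read 8.84 and 9.08, Id1, which sequesters myogenic factors, 9.11 and 9.34, and Snai1 9.12 and 9.34, while Msc read 6.27 and 6.11 and Twist1 5.48 and 5.31. At 8 h Myf6 was at -0.44, Hey1 at 0.05, Id1 at 0.29 and Snai1 at 0.31.

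Metabolic and growth lists had medians between -0.02 and 0.055 at 4 h, beside 0 for all genes. Glycolysis and hypoxia genes had 18 of 26 above 0, and beside Car12 the hexokinase gene Hk2 read 7.86 and 8.15. Amino acid and unfolded protein response genes had 22 of 32 below 0, with the serine synthesis gene Phgdh lowest (8.58 and 8.26, the lowest of the 2790 genes of like level) and Asns, the asparagine synthetase gene, at 11.99 on both arrays. Oxidative phosphorylation genes had 18 of 33 below 0, within -0.14 to 0.27. Cell cycle genes had 21 of 32 above 0, and Ccnd1, cyclin D1, read 9.91 and 9.90. In the matrix list, Ugdh, which makes a precursor of hyaluronan, read 10.81 and 11.04, and the proteoglycan gene Vcan 10.81 and 11.02, at or above 99.6% and 99.3% of the 2497 genes with a mean of 10 or more. By 24 h the cell cycle list had a median of -0.36 and the amino acid list of -0.275. Glucocorticoid targets had 12 of 18 genes above 0, metallothionein and oxidative stress genes 13 of 20, sterol and fatty acid synthesis genes 17 of 25, lipid uptake and oxidation genes 13 of 22, and growth factors and their receptors 10 of 27. None of these had a member past 1.5-fold.

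**Figure D2:**
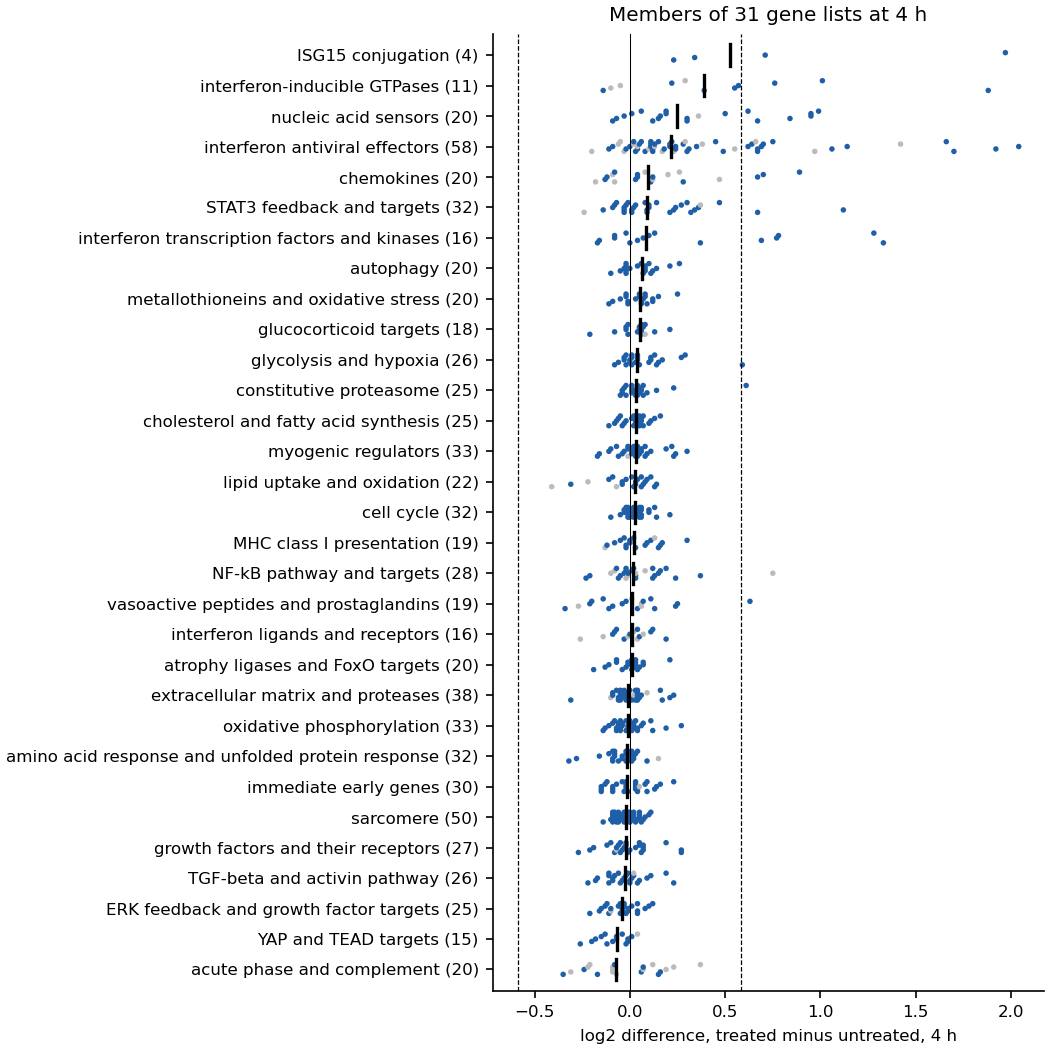
Each row is a gene list with the number of measured members in brackets. The horizontal axis is the treated minus untreated log2 difference at 4 h, points are genes (grey where the mean lies within background), bars are medians and dashed lines mark 1.5-fold. The ISG15, GTPase, sensor and effector lists have the highest medians, from 0.525 down to 0.215, and the acute phase and YAP lists the lowest, at -0.075 and -0.07. Over members with a mean above background alone, these 2 medians were -0.01 and -0.08.

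The higher genes were followed on the 8 h and 24 h arrays, which the choice at 4 h did not use. Of the 47 above background 42 were above 0 at 8 h and 44 at 24 h, and 39 and 32 of them were past 1.5-fold, where 0.76% of all genes were at 8 h and 1.2% at 24 h. The median of the 47 was 0.74 at 4 h, 1.45 at 8 h and 0.83 at 24 h. The mean that picked these 47 includes the treated 4 h array. By the untreated level alone 41 genes lay above background, of which 38 were above 0 at 8 h and 39 at 24 h. Of the 27 within background 17 were above 0 at 8 h and 13 at 24 h, where 48.5% and 46.2% of all genes were. Their medians were 0.14 and 0. Of the 16 genes at 2-fold, 14 were past 1.5-fold at 8 h, all but Olfr268-ps1 and Vmn1r208, at 0.20 and 0.14.

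Most of the early genes were further from the untreated array at 8 h than at 4 h. That held for 39 of the 47, while 10 were further at 24 h than at 8 h. Ifit1 stood at 2.04, 3.23 and 1.2 at 4, 8 and 24 h, Usp18 at 1.97, 3.70 and 1.02, and Rtp4 at 1.92, 3.45 and 1.29. Among the 47, Ifit3 (1.66, 3.72 and 1.10) and Ifi44 (1.06, 3.42 and 1.61) had the widest steps between 4 and 8 h. These 5 were highest at 8 h. Prg4 (1.12, 1.70 and 2.04), Ccl7 (0.89, 1.67 and 2.02), Ccl2 (0.70, 1.27 and 1.36) and Ccl11 (0.67, 1.35 and 1.92) were instead highest at 24 h. Levels at 24 h were not compared with those of the earlier times, since the 24 h arrays lay on a lower scale, with medians of 6.14.

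**Figure D3:**
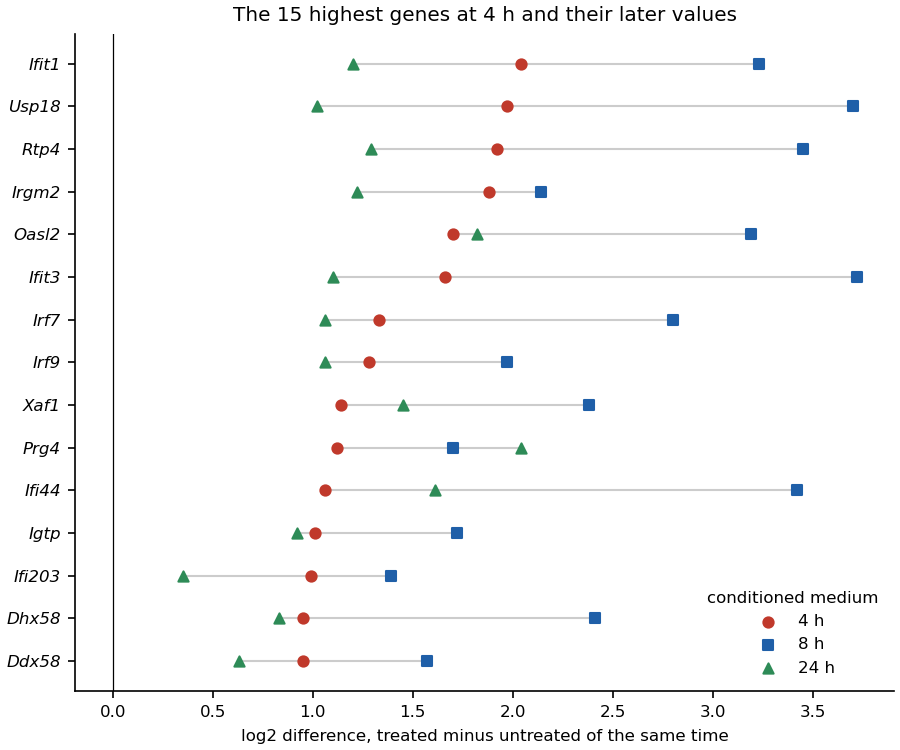
The 15 highest genes above background at 4 h by the ranking, which leaves out receptor genes of smell, in rows. The horizontal axis is the treated minus untreated log2 difference, each time against its own untreated array, with circles for 4 h, squares for 8 h and triangles for 24 h. For 14 of the rows the square lies furthest right, and for Prg4 the triangle does.

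Read the other way, from the later arrays back, 161 genes were higher by 1.5-fold at 8 h, and 149 of them (92.5%) were already above 0 at 4 h, where 46.0% of all genes were. At 4 h 45 of them (28.0%) had passed 1.5-fold. On the lower side of 8 h, 80 genes (0.378%), 53 were below 0 at 4 h (66.2%, against 49.6% of all genes), 0 had passed 1.5-fold and the median was -0.06. Of 255 genes higher at 24 h 37 had passed at 4 h (14.5%), and of 274 lower at 24 h (1.29%) 0 had.

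Among the 64 genes higher by at least 2-fold at 8 h, 62 were above 0 at 4 h. The median gene stood at 44.4% of its 8 h log2 difference, with quartiles of 26.8% and 55.2%. Irgm2 was furthest along, at 87.9%, followed by Ifi203 (71.2%), Trim25 (68.6%), Prg4 (65.9%), Irf9 (65.0%), Casp4 (64.4%) and Ifit1 (63.2%). The untreated level of Irgm2 was 4.64 at 4 h, within background, and 5.17 at 8 h, so its share rests in part on that low start. Ifi44 (31%), Bcl3 (33.9%) and Zbp1 (34.4%) were less far. Hardly begun at 4 h were Bst2, tetherin, which holds budding virus to the cell (9.8%, 6.79 and 6.91), the synthetase gene Oas2 (13.3%, 5.07 and 5.25) and Ptgfr, a receptor for a prostaglandin (13.8%, 5.12 and 5.37). Ptgfr stood at 1.81 at 8 h and 1.91 at 24 h. Such a percentage has no error here, since each value is a difference of 2 single arrays.

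Most of the higher genes were under 1.5-fold with LIF at the same time point. With LIF at 4 h 67 genes were higher by 1.5-fold (0.316%) and 47 lower (0.222%), from values deposited to 1 decimal. Of the 74 genes higher with conditioned medium 5 were past 1.5-fold with LIF (6.76%). Over the 47 above background the median with LIF was 0.1, and 27 were above 0 (57.45%), where 33.2% of all genes above background were, with a median of 0. The 5 interferon lists had a median of 0.1 with LIF and 0.23 with conditioned medium. Ifit1 was at 0.1 with LIF, Rtp4 at 0.2, Irgm2 at 0.0, Irf9 at -0.1 and Usp18 at -0.5. Xaf1, at 0.5, and Oasl2, at 0.3, had higher values. The difference between the agents was not tested.

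Some genes, several of them in the STAT3 list, had like values with both agents. They were set side by side with their values known. That list was chosen with earlier results of these data known, so the likeness is only a description. The median of the whole list was 0.1 with LIF and 0.09 with conditioned medium. Prg4 was at 1.3 with LIF and 1.12 with conditioned medium, Car12 at 0.7 and 0.59, Ccl11 at 0.8 and 0.67, Sfrp4 at 0.8 and 0.67 and Casp4 at 0.5 and 0.67. Of the smaller differences, Il33 was at 0.5 and 0.47, Cd53 at 0.5 and 0.36, Il13ra1 at 0.4 and 0.34, Osmr at 0.3 and 0.32 and Il4ra at 0.4 and 0.24. Socs3 was at 0.7 with LIF and 0.30 with conditioned medium, and Serpina3n, within background in the conditioned medium arrays, at 1.0 and 0.37. Ccl7 and Ccl2 stood apart from Ccl11, at 0.2 and -0.1 with LIF. Of the genes slightly lower with conditioned medium, Ccn2 was at -0.6 with LIF, Hbegf at -0.5 and Ereg at -0.6. Others were nearer 0 with LIF, among them Edn1 at -0.3, Ccn1 at -0.2 and Fst at -0.1. The YAP and TEAD list had a median of -0.1 with LIF. Across the 14728 genes above background the 4 h values of the agents had a Pearson correlation of 0.031 and a Spearman correlation of -0.007. Conditioned medium at 4 h against 8 h gave 0.343 and 0.051, and against 24 h 0.044 and -0.101. These are descriptions across genes, which are not independent.

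**Figure D4:**
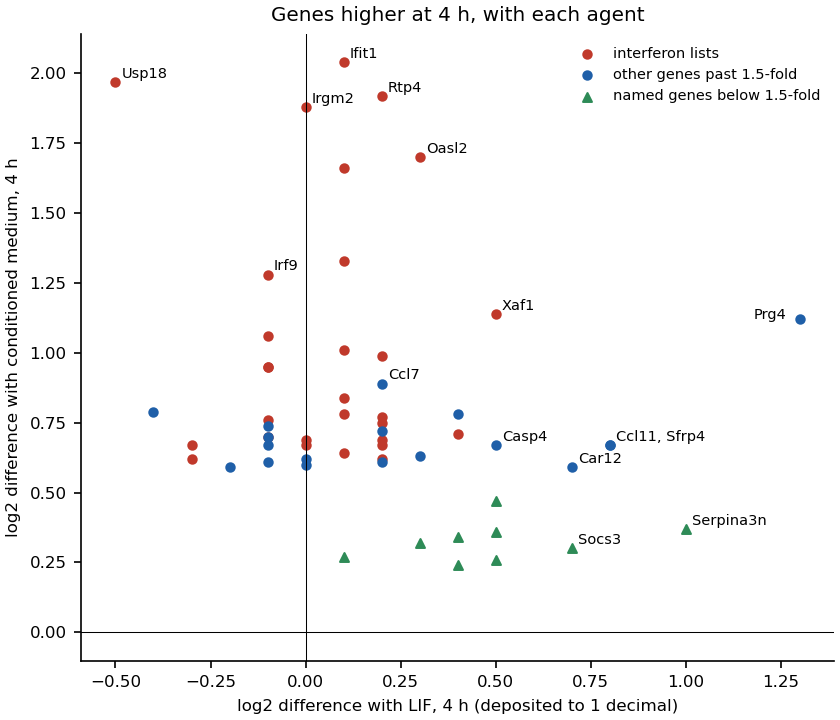
Genes higher by 1.5-fold with conditioned medium at 4 h and above background (circles, red for the interferon lists and blue for the others) and 9 named genes under 1.5-fold (triangles). The horizontal axis is the log2 difference with LIF at 4 h, the vertical axis that with conditioned medium at 4 h. The highest interferon genes lie near 0 on the LIF axis, apart from Usp18 at -0.5, and Prg4 lies high on both axes.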

How the data were processed

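Expression was measured on Affymetrix mouse gene 1.0 ST arrays, 12 in all, 1 per agent, arm and time, each from RNA of 3 pooled wells, per the labels' protocols. The authors deposited log2 values made with RMA, per the submitters' processing notes, which give no version, and 1 value per Entrez gene for 21187 genes, to 2 decimals for conditioned medium and 1 for LIF. They also deposited a signed fold score for conditioned medium, used as an alternative source, and 12 further columns of per-sample values were not used. The number of arrays limits the precision, and sequencing depth has no counterpart here.

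Differences of deposited log2 values were taken within each time, with no test, since each arm held 1 array. Calls were differences of at least 1.5-fold (0.585) and, more strictly, 2-fold. Background was the 95th percentile of 1290 olfactory and vomeronasal receptor genes. Of the genes 20819 matched the RefSeq gene table, through which 1943 symbols were updated. The text names the 20 highest and 15 lowest genes above background, the 5 highest and 5 lowest without a filter, up to 8 members of each list or all past 1.5-fold, interferon ligands and receptors, and 4 myotube markers. Predicted genes, chemosensory receptors, antigen receptor segments, microRNA, small nucleolar RNA and histone genes were left out of the rankings but kept in the counts. Further list members, near level or widely known, were named with their values known. The comparison, the 31 pathway and 6 marker lists were chosen with earlier results of these data known. Scripts were tested on simulated data and ran in Python 3.11.15 with pandas 2.3.3, numpy 2.4.6 and matplotlib 3.10.9. Alternatives were filters on dim genes, median centring, quantile normalization, the deposited folds, rounding and other folds. Isg15 was not analysed here, and some genes that the naming rule picks are not reported.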

Additional observations from a re-analysis of the deposited data

Results flagged for a closer look

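For 3 of the genes picked by the naming rule the conditioned medium difference was past 1.5-fold in one direction at 4 h and in the other at 24 h, on 1 array a side, and the difference between the times was not tested. Pcdha6, a protocadherin gene of a cluster with near-identical members, was at -0.78 at 4 h (5.78 untreated and 5.0 treated), 0 at 8 h and 0.69 at 24 h (4.54 and 5.23). The antisense transcript gene Appbp2os was at -0.84 at 4 h (5.07 and 4.23) and 0.94 at 24 h (3.41 and 4.35). The kallikrein gene Klk1 was at -0.75 at 4 h (3.91 and 3.16) and 0.67 at 24 h (2.40 and 3.07). The means of Appbp2os and Klk1 at 4 h lay within background. Genes outside the rule did so too: Olfr268-ps1 was at 1.26 and then -0.63, Vmn2r61 at 0.79 and -0.72, Pcdha11 at 0.67 and -0.98 and Vmn1r175 at -0.81 and 0.61. The 4 h means of Olfr268-ps1, Pcdha11 and Vmn1r175 also lay within background, and that of Vmn2r61 just above it, at 5.22.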

How the results depend on the processing

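Counts depended on the filter and the fold. The 74 genes higher by 1.5-fold became 47 with a mean above background, 41 with an untreated level above background, 304 past a log2 difference of 0.322 and 6 at 3-fold, and the 18 lower genes became 6, 9, 270 and 0. The 16 genes higher by 2-fold became 10 with an untreated level above background, and the 0 lower by 2-fold became 1 with values rounded to 1 decimal. Of the higher genes, 59 above 0 at 8 h became 38 with an untreated level above background and 16 at 2-fold, and 57 above 0 at 24 h became 15 at 2-fold. Of the lower genes, 6 below 0 at 8 h became 10 with rounded values, 2 with an untreated level above background and 1 with a mean above background, and 7 below 0 at 24 h became 2 under either filter. These counts move because fewer or more genes enter. The other 36 counts stayed within 1.5 times. All 1582 values of named genes and 222 list medians under the alternatives moved by less than the 0.18 standard deviation of receptor genes, by at most 0.1 and 0.17. That spread is of single genes, so a list median near 0 could change sign within it. With only genes whose mean lay above background, the GTPase median went from 0.39 to 0.56 and the acute phase median from -0.075 to -0.01. The median of the vasoactive peptide and prostaglandin list went from 0.01 to -0.02. No paired analysis was possible because each arm held 1 array at each time, and for the same reason no replicate could be left out.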
